A study of Homo sapiens with 6 samples.

Results

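Intergenic long noncoding RNAs and the host genes of small RNAs were followed in CAL51 cells, an established human triple-negative breast cancer line, after knockout of the exonuclease gene TREX1. Members were taken by symbol: names that start with LINC or SNHG, names that start with MIR and end in HG, and UCA1, MALAT1, NEAT1, GAS5 and DANCR. Antisense symbols were left out. Of 255 such symbols, 199 reached a log2 CPM of at least 0 in at least 2 of the 6 libraries, out of 13765 genes that did so. These 199 are 146 LINC genes of 200 listed, 25 snoRNA hosts of 26 (GAS5 and DANCR among them), 25 microRNA hosts of 26, and UCA1, MALAT1 and NEAT1. At the limit of that filter, LINC01011 lay just inside, with a second-highest value of 0.03 log2 CPM, and LINC03006 just outside, at -0.01.

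Poly(A) RNA was sequenced from 2 libraries of TREX1 KO-1, 2 of TREX1 KO-2 and 2 controls. KO-1 and KO-2 carry different guide RNAs against TREX1, delivered by CRISPR v2 lentivirus, and the deposited read-me speaks of several KO clones without saying which library came from which. The control libraries are labelled Ctrl with no further description, and no source used here says whether they carried a guide or Cas9. TREX1 itself was not analysed here, and the libraries are called by their labels.

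Long noncoding RNAs are transcribed, spliced and often polyadenylated like mRNAs but are not known to encode a conserved protein. Small nucleolar RNAs (snoRNAs) are cut from the introns of host transcripts and guide 2'-O-methylation (C/D box) or pseudouridylation (H/ACA box) of ribosomal RNA, while the spliced host RNA is often translated briefly and destroyed by nonsense-mediated decay. MicroRNA hosts are primary transcripts from which Drosha and Dicer cut microRNAs, whose seed pairs with target mRNAs. Poly(A) libraries count the host transcripts, so levels of the mature snoRNAs and microRNAs were not measured.

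Of the 199 members, 25 differed between the mean of both guides and control at an adjusted p below 0.05 (limma, Benjamini-Hochberg over all genes tested), 13 of them higher and 12 lower. Higher were UCA1, the microRNA hosts MIR34AHG, MIR99AHG and MIR4435-2HG, the snoRNA host SNHG5 and 8 LINC genes. Lower were the snoRNA hosts SNHG12 and SNHG4 and 10 LINC genes. Over all genes tested 14.6% were called higher and 14.9% lower, 29.6% in all, against 12.6% of the members, which are mostly of low level. Their median log2 fold change was -0.06, against -0.01 over all genes tested. At an unadjusted p below 0.05 there were 47 members, and 5602 of all 13765 genes. In bulk RNA, fewer cells that express a gene and less RNA per cell cannot be told apart.

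**Figure D1:**
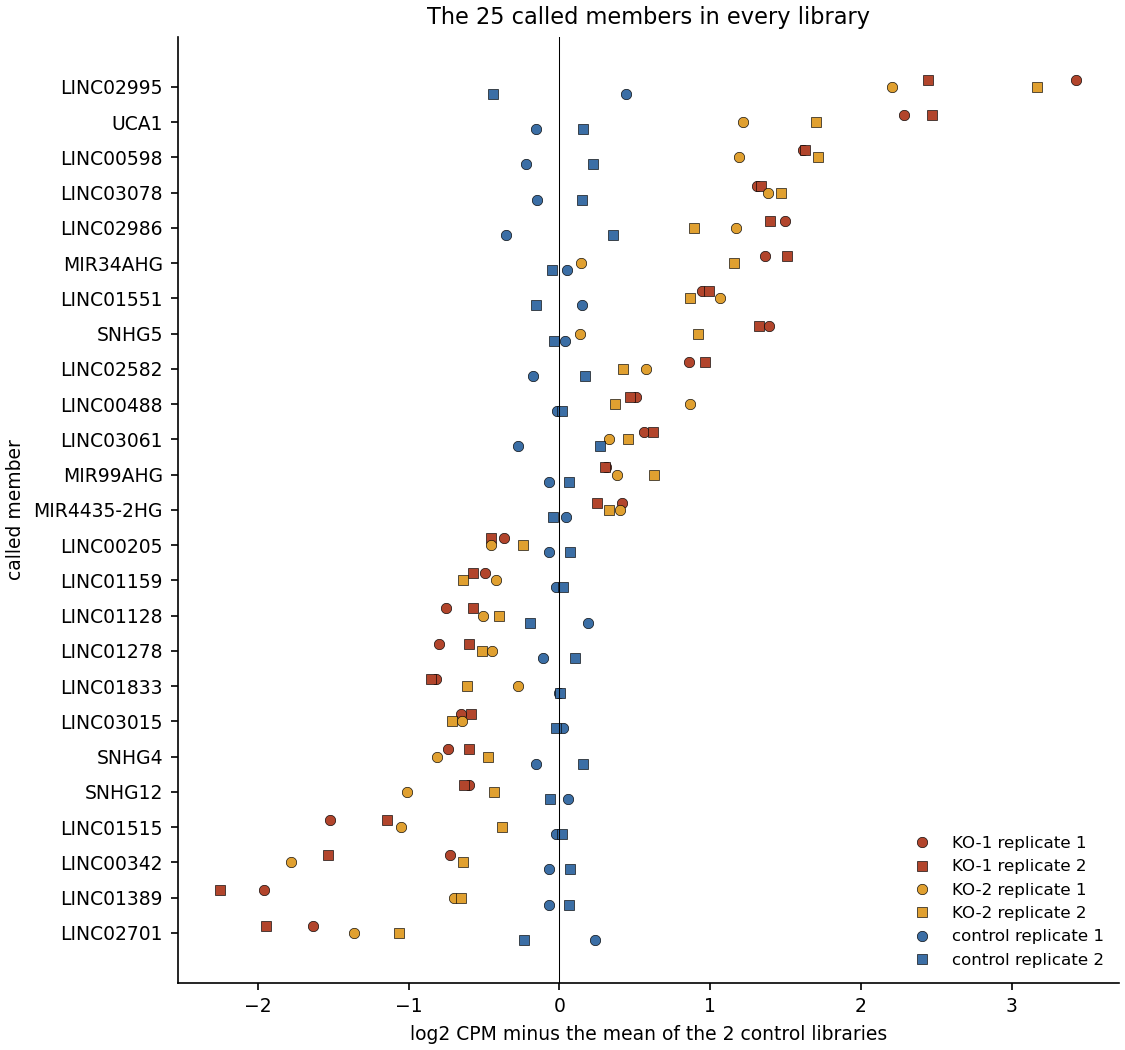
Log2 CPM of the 25 called members in every library, minus the mean of the 2 control libraries (x axis, log2); circles are replicate 1 and squares replicate 2. The 4 knockout libraries lie on one side of both controls for every gene drawn, and KO-2 replicate 1 lies close to the controls for MIR34AHG and SNHG5.

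The sequences below are those that the called host genes carry. For the 3 called microRNA hosts, 5 of their annotated mature microRNAs, those of the 5p arm or with no arm in the name, are given from RefSeq (GRCh38.p14) with the seed, bases 2 to 8, in capitals.
hsa-miR-34a-5p: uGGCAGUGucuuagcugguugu
hsa-miR-99a-5p: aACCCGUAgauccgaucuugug
hsa-let-7c-5p: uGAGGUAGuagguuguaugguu
hsa-miR-125b-5p: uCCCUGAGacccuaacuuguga
hsa-miR-4435: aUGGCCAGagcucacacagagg
The first is held by MIR34AHG, the last by MIR4435-2HG and the other 3 by MIR99AHG, and no seed is shared among these 5. In all, the 25 microRNA hosts span 82 annotated mature microRNAs, of which 8 have the let-7 seed GAGGUAG.

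SNHG5 (chr6:85677007-85678733, minus strand) spans 2 snoRNA genes in RefSeq, both of the C/D family. SNORD50B (chr6:85677589-85677658, GRCh38, minus strand), read from the GENCODE release 29 transcripts, is printed with its C box and D box in capitals.
SNORD50B: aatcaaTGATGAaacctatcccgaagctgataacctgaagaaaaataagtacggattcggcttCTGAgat

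Many snoRNA hosts start at a C followed by a run of pyrimidines, the 5' terminal oligopyrimidine (TOP) start that ribosomal protein mRNAs also carry. Such a run was searched on the transcribed strand as a C followed by further C or T, at least 5 letters in all, that begins within 5 bases of the annotated start. It was found at 12 of the 22 snoRNA hosts with a promoter entry in RefSeq, at 9 of 24 microRNA hosts, at 25 of 103 LINC genes and at 21.1% of all 27305 promoters. The 30 bases around the start are shown for the 3 called snoRNA hosts, with the run in capitals.
SNHG5: acttcggtCTTTTacgtcggccttcgcgag
SNHG12: ttcagcgCCCTTTCTCCCCgccgcattccc
SNHG4: cccggctgCCCTTTCCCCTCCggcctctgc
These windows are chr6:85678712-85678741 (minus strand), chr1:28581852-28581881 (minus strand) and chr5:139274093-139274122 (plus strand) in GRCh38.p14. All 3 hold a run, in the called gene that was higher as well as in the 2 that were lower.

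Depth, as reads recovered from the deposited values, lay between 13222933 (KO-2 replicate 1) and 25785055 (control replicate 2). Members took between 0.181% (KO-2 replicate 1) and 0.216% (KO-2 replicate 2) of the reads of a library. Their median mean level was 1.38 log2 CPM, against 4.98 for all genes tested, and 69 members had under 20 reads in KO-2 replicate 1, against 13 to 38 in the other libraries. Intervals on reads cover counting error only. The epithelial keratin transcript KRT8 lay between 9.57 and 9.93 log2 CPM. ERBB2 lay between 7.35 and 7.64 log2 CPM, and ESR1 and PGR had no row. Of 10 markers of other cell types 5 were in the table, PTPRC (3.95 to 4.35 log2 CPM) and CDH5 (3.46 to 4.05) among them, and the summed level of the 5 was 98.8 to 106 CPM in the knockout libraries and 98.3 and 99.0 CPM in the controls. Within that sum COL1A1 rose (log2 fold change 0.63, adjusted p = 0.0039) and CDH5 fell (-0.40, adjusted p = 0.0304), and their part in the results was not tested.

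The share called was set out by level. Among the 119 members with a mean log2 CPM below 2, 8 were called (6.72%), against 8.04% of all genes in that range. Among the 64 members between 2 and 5, 16 were called (25%), against 26.9%. Among the 16 members at 5 or more, 1 was called, MIR4435-2HG, against 39.2% of all genes at that level. These 16 include MALAT1, NEAT1, GAS5, DANCR, SNHG1 and SNHG14, and their median standard error of 0.08 was the smallest of the 3 ranges. The 4 knockout libraries lay on one side of both controls for 64 members (32.2%), against 46.3% of all genes.

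**Figure D2:**
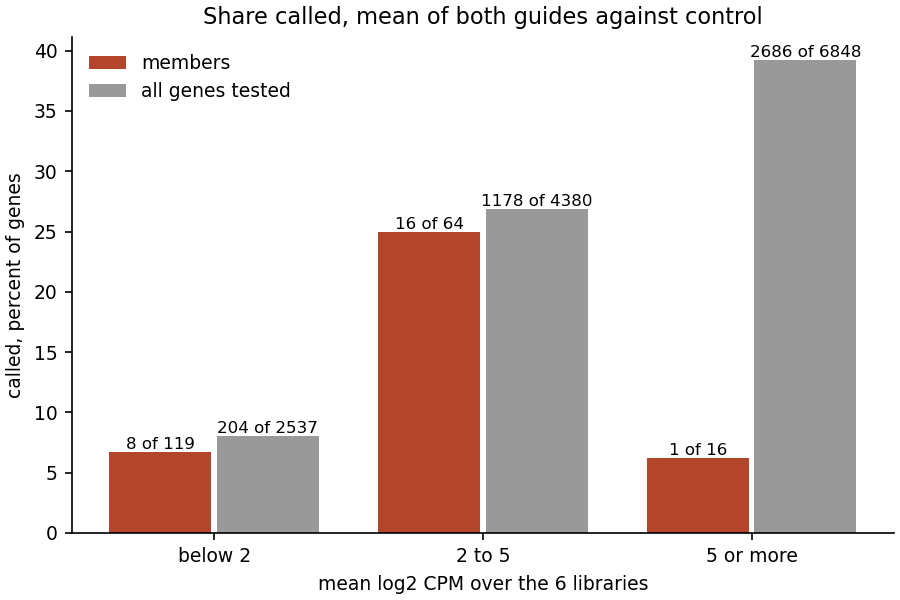
Percent of genes called for the mean of both guides against control (y axis) in 3 ranges of mean log2 CPM (x axis), for members and for all genes tested, with counts above the bars. Members stand close to all genes below 5 and at 1 of 16 against 2686 of 6848 above it.

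**Figure D3:**
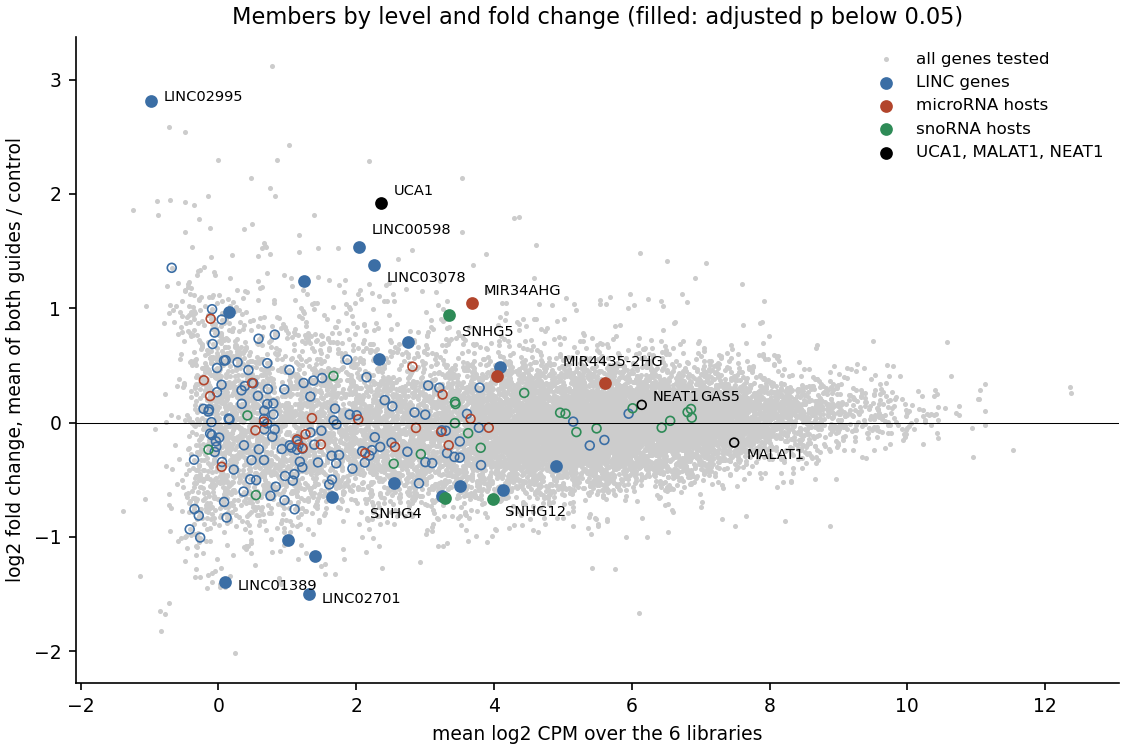
Log2 fold change of the mean of both guides over control (y axis) against mean log2 CPM over the 6 libraries (x axis), for members by class over all genes tested in grey; filled points have an adjusted p below 0.05. The called members above 1 on the y axis are LINC02995, UCA1, LINC00598, LINC03078, LINC02986 and MIR34AHG.

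Of the 25 snoRNA hosts 3 were called (12%), against 29.6% of all genes, and the median log2 fold change of the 25 was 0.02. SNHG5 stood at 4.11 and 4.04 log2 CPM in KO-1 and 2.85 and 3.64 in KO-2, against 2.75 and 2.68 in control. Every knockout library was above both controls, but KO-2 replicate 1 by a narrow margin. The log2 fold change was 0.94 (SE 0.19, adjusted p = 0.00399) for both guides, 1.36 for KO-1 (adjusted p = 0.00114) and 0.53 for KO-2 (adjusted p = 0.124). Without the mean-variance trend the adjusted p for both guides was 0.0536.

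SNHG12, host of 3 H/ACA snoRNAs and 1 C/D snoRNA in RefSeq, stood at 3.82 and 3.79 log2 CPM in KO-1 and 3.42 and 3.99 in KO-2, against 4.48 and 4.37 in control. The log2 fold change was -0.67 (SE 0.15, adjusted p = 0.00678), and all knockout libraries were lower. SNHG4, host of 2 H/ACA snoRNAs, stood at 2.99 and 3.13 log2 CPM in KO-1 and 2.91 and 3.25 in KO-2, against 3.57 and 3.88 in control, for a fold change of -0.66 in log2 units (SE 0.15, adjusted p = 0.00836). Both fell under each guide. The SNHG12 adjusted p was 0.0985 without control replicate 1 and 0.0615 without the mean-variance trend, and that of SNHG4 was 0.162 without control replicate 2. In GENCODE release 29, exons of SNHG12 overlap TRNAU1AP on the other strand, and exons of SNHG4 overlap MATR3 on the same strand and SIL1 on the other. No source used here gives the strand setting of the counting, so reads of these pairs cannot be told apart. TRNAU1AP had a log2 fold change of -0.14 (adjusted p = 0.326) and MATR3 of 0.00 (SE 0.27, adjusted p = 0.999). The MATR3 row held few reads, at 1.22 to 2.59 log2 CPM, below SNHG4 in every library. Its fold change is thus loosely measured and does not show that MATR3 was unchanged.

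GAS5, which spans 11 snoRNA genes and is a textbook substrate of nonsense-mediated decay, was at 6.89 and 6.96 log2 CPM in KO-1 and 6.75 and 6.94 in KO-2, against 6.83 and 6.86 in control. DANCR, which spans 1 H/ACA snoRNA gene and is named for opposing differentiation, was at 6.44 and 6.37 log2 CPM in KO-1 and 6.53 and 6.33 in KO-2, against 6.47 and 6.45 in control. For both the groups overlap. Their log2 fold changes were 0.04 (95% interval -0.10 to 0.18) and -0.04 (-0.19 to 0.10), so changes beyond 0.2 either way lie outside both intervals. SNHG14, a host of the many SNORD115 and SNORD116 copies, had the log2 fold change 0.02 (SE 0.06), SNHG29 0.09 (SE 0.06), SNHG3 -0.05 (SE 0.07) and SNHG16 0.13 (SE 0.08). SNHG1, whose introns hold a row of C/D snoRNAs, stood at 7.03 and 7.09 log2 CPM in KO-1 and 6.60 and 6.87 in KO-2, against 6.84 and 6.72 in control. It was called for KO-1 against control (0.28, adjusted p = 0.0328) and not for KO-2 (-0.04, adjusted p = 0.779), and the difference between the guides had an adjusted p of 0.112.

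No other snoRNA host was called for the mean of both guides. At 4 to 6 log2 CPM, the log2 fold changes were 0.26 for SNHG6 (adjusted p = 0.0803), 0.09 for SNHG17, 0.08 for SNHG15 and -0.08 for SNHG7. At 2 to 4 log2 CPM they were 0.18 for SNHG32, 0.16 for SNHG11, -0.09 for SNHG19, -0.22 for SNHG8, -0.28 for SNHG30 and -0.36 for SNHG20, and SNHG10 was within 0.01 of 0. The 4 below 2 log2 CPM were SNHG26 at 0.41, SNHG9 at 0.06, SNHG18 at -0.24 and SNHG31 at -0.63, with standard errors of 0.22 to 0.46. Per kilobase of exon, the 5 members with the highest levels were snoRNA hosts, among them DANCR with 37.8, SNHG19 with 36.3, GAS5 with 32.2 and SNHG1 with 31.1 CPM per kb over the 6 libraries, while MALAT1 had 20.7.

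Among the 14 core and assembly proteins of snoRNA particles, 4 fell and none rose for the mean of both guides, where 29.6% of all genes were called. NOP56, a C/D core protein, had a log2 fold change of -0.29 (adjusted p = 0.00138), and FBL, the C/D methyltransferase, -0.21 (adjusted p = 0.0076). The other C/D core proteins, NOP58 (0.07, adjusted p = 0.315) and SNU13 (0.12, adjusted p = 0.188), were not called. RUVBL1, an assembly ATPase, had -0.23 (adjusted p = 0.0173), and NOP10 of the H/ACA core -0.20 (adjusted p = 0.0466). The median over the 14 was -0.01. Of 13 TOP mRNAs that encode no ribosomal protein, 7 rose and none fell, where 14.6% of all genes rose, with a median of 0.21; EIF4B had 0.29, EEF2 0.29 and TPT1 0.27. SNHG12 and SNHG4, which start with a pyrimidine run, were lower, and SNHG5, which does too, was higher. Of 14 nonsense-mediated decay factors 5 rose and 4 fell, where 14.6% and 14.9% of all genes did, with SMG6 at -0.31 and UPF2 at -0.26.

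**Figure D4:**
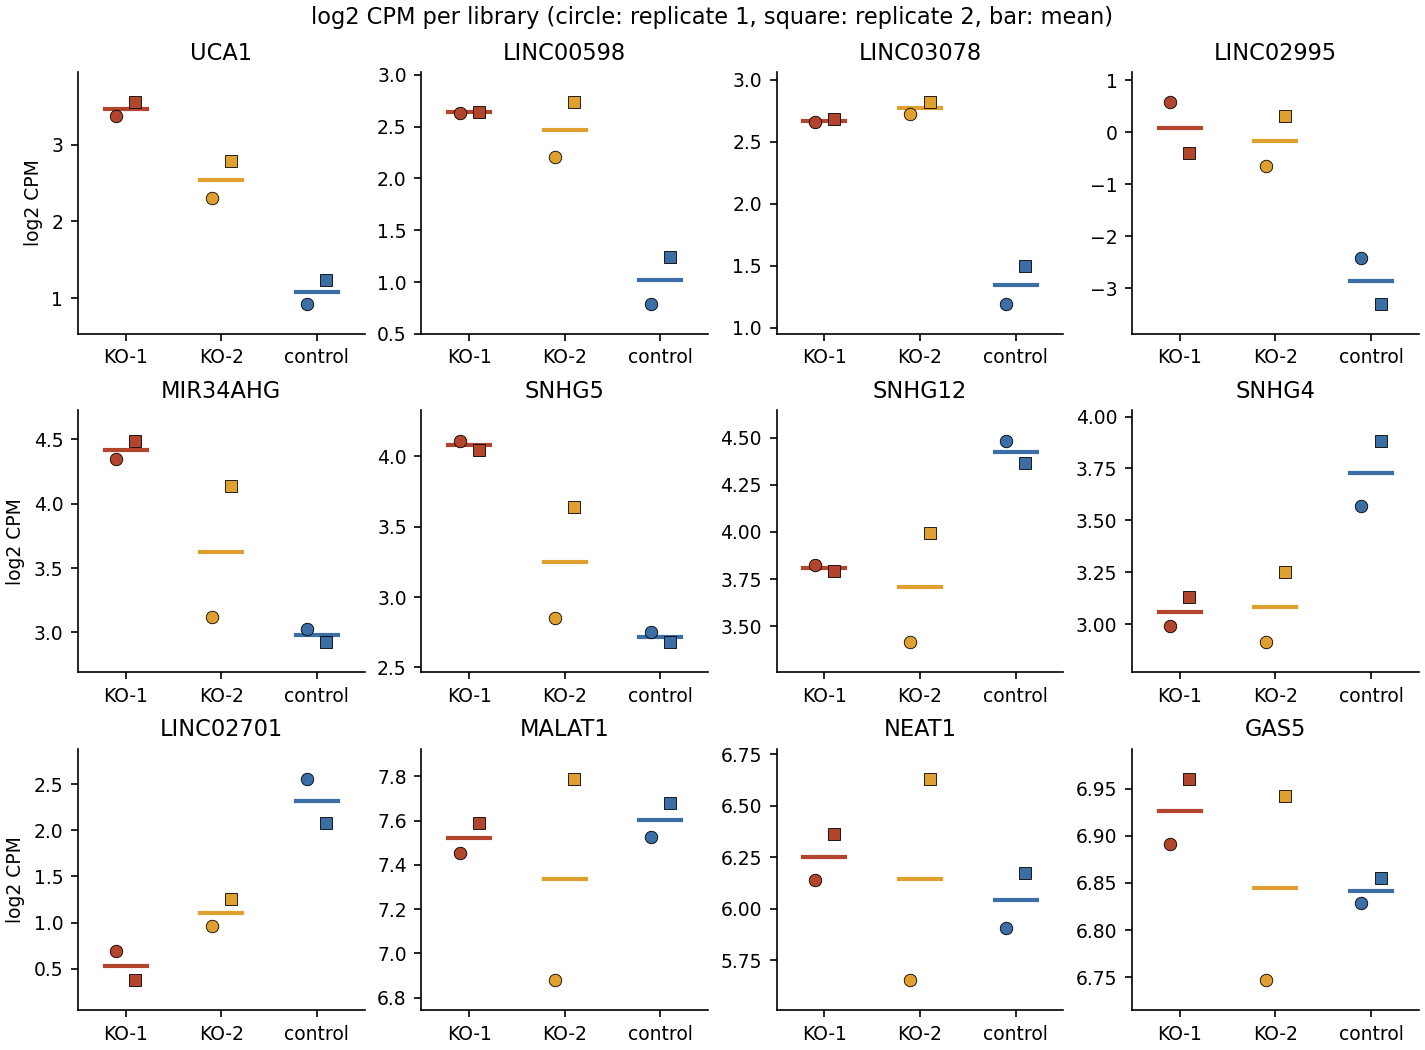
Log2 CPM (y axis, a range of its own in each panel) of 12 members in KO-1, KO-2 and control; circles are replicate 1, squares replicate 2 and bars the mean of 2 libraries. UCA1, LINC00598, LINC03078 and LINC02995 are separated in every knockout library, while MALAT1 and NEAT1 have their lowest value in KO-2 replicate 1 and their highest in KO-2 replicate 2.

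Of the 25 microRNA hosts 3 were called, all higher, while 14.6% of all genes were called higher. MIR34AHG (chr1:9148011-9182338, minus strand), the primary transcript of the p53-induced miR-34a, stood at 4.34 and 4.49 log2 CPM in KO-1 and 3.12 and 4.13 in KO-2, against 3.03 and 2.93 in control. As with SNHG5, KO-2 replicate 1 lay just above the controls and the other 3 knockout libraries well above them. The log2 fold change was 1.04 (SE 0.22, adjusted p = 0.00516) for both guides, 1.44 (adjusted p = 0.00190) for KO-1 and 0.65 (adjusted p = 0.106) for KO-2. The adjusted p for both guides was 0.0538 without control replicate 2 and 0.0719 without the mean-variance trend. Of 4 p53-linked long noncoding RNAs tested, MIR34AHG was the one called, where 29.6% of all genes were; TP53TG1 had a log2 fold change of 0.27 (adjusted p = 0.395).

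MIR99AHG, host of the miR-99a, let-7c and miR-125b-2 cluster, stood at 4.09 and 4.08 log2 CPM in KO-1 and 4.16 and 4.41 in KO-2, against 3.71 and 3.85 in control. MIR4435-2HG, known in mouse as a regulator of the neighbouring gene Bcl2l11, stood at 5.79 and 5.62 log2 CPM in KO-1 and 5.78 and 5.70 in KO-2, against 5.42 and 5.33 in control. Both sets of knockout libraries were above both controls by small steps. The log2 fold changes were 0.40 for MIR99AHG (SE 0.11, adjusted p = 0.0195) and 0.35 for MIR4435-2HG (SE 0.08, adjusted p = 0.00627). MIR99AHG was not called without control replicate 1 (adjusted p = 0.214), control replicate 2 (0.0888), KO-1 replicate 1 (0.0629), KO-1 replicate 2 (0.0598) or the mean-variance trend (0.0505). MIR4435-2HG was not called without control replicate 1 (adjusted p = 0.0514) or control replicate 2 (0.108). Exons of MIR4435-2HG overlap BCL2L11 on the other strand in GENCODE release 29, and BCL2L11 had a log2 fold change of -0.18 (adjusted p = 0.106). Since the strand setting of the counting is not known, reads of this pair cannot be told apart.

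The other 22 microRNA hosts were not called. MIR17HG, host of the miR-17-92 cluster, was at 1.72 and 2.05 log2 CPM in KO-1 and 1.83 and 2.57 in KO-2, against 2.47 and 2.15 in control, with a log2 fold change of -0.27 (adjusted p = 0.432). For MIR22HG, host of miR-22, the log2 fold change was -0.04, and for MIR222HG, host of miR-221 and miR-222, it was 0.03. MIR23AHG, host of a miR-23a cluster, had 0.25, with KO-2 at 2.78 and 3.78 log2 CPM and control at 3.09 and 3.09. The let-7 hosts MIRLET7A1HG, MIRLET7BHG and MIRLET7IHG had -0.15, -0.08 and 0.01. MIR210HG, host of the hypoxia-induced miR-210, had -0.22, and MIR503HG had -0.19. MIR181A2HG had 0.91 (adjusted p = 0.103) and MIR600HG 0.49 (adjusted p = 0.0835), the highest of the 22. MIR29B2CHG had 0.37, MIR137HG 0.35, MIR3142HG 0.23, MIR3936HG 0.04 and MIR4458HG 0.03. MIR924HG had -0.05, MIR762HG -0.07, MIR193BHG -0.10, MIR1915HG -0.20, MIR4453HG -0.21 and MIR130AHG -0.39. Of 13 microRNA processing genes, AGO3, an Argonaute, rose (0.38, adjusted p = 0.0223), and DICER1 (-0.25, adjusted p = 0.0144) and DGCR8 (-0.19, adjusted p = 0.0415) fell, 3 called where the share over all genes was 29.6%.

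UCA1 (urothelial cancer associated 1, chr19:15828947-15836321, plus strand), an RNA first known from bladder carcinoma, had the smallest adjusted p of the members. It stood at 3.37 and 3.55 log2 CPM in KO-1 and 2.30 and 2.79 in KO-2, against 0.93 and 1.24 in control. The groups do not overlap, and KO-1 lay above KO-2. The log2 fold change was 1.92 (SE 0.20, adjusted p = 8.73e-05), or 3.78-fold, with 2.38 for KO-1 and 1.46 for KO-2. KO-2 minus KO-1 was -0.92 (95% interval -1.42 to -0.42, adjusted p = 0.0838). Its call held under all 15 alternative settings, and its nearest tested coding gene within 100 kb, CYP4F11, had a log2 fold change of 0.03 (adjusted p = 0.861).

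MALAT1, an abundant nuclear RNA of the splicing speckles, stood at 7.45 and 7.59 log2 CPM in KO-1 and 6.88 and 7.79 in KO-2, against 7.53 and 7.68 in control. NEAT1, the RNA scaffold of paraspeckles, stood at 6.14 and 6.36 log2 CPM in KO-1 and 5.65 and 6.63 in KO-2, against 5.91 and 6.17 in control. For both RNAs the 2 KO-2 libraries are the lowest and the highest of the 6. Neither was called for both guides: the log2 fold change was -0.17 for MALAT1 (adjusted p = 0.496) and 0.16 for NEAT1 (adjusted p = 0.598). Without KO-2 replicate 2, MALAT1 had -0.40 (adjusted p = 5.64e-06), and without KO-2 replicate 1 it had 0.05 (adjusted p = 0.427). NEAT1 had 0.40 (adjusted p = 0.0003) without KO-2 replicate 1 and -0.09 (adjusted p = 0.367) without KO-2 replicate 2. Among the paraspeckle proteins, CPSF6 (-0.34, adjusted p = 0.0026) and RBM14 (-0.16, adjusted p = 0.0462) fell.

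LINC symbols mostly record position rather than function, and 18 of the 146 were called (12.3%), 8 higher and 10 lower, against 29.6% of all genes. LINC00598 (chr13:40347132-40481004, minus strand) stood at 2.63 and 2.64 log2 CPM in KO-1 and 2.21 and 2.73 in KO-2, against 0.79 and 1.24 in control. The log2 fold change was 1.54 (SE 0.22, adjusted p = 0.000621). LINC03078 (chr19:43328989-43331508, minus strand) stood at 2.66 and 2.68 log2 CPM in KO-1 and 2.73 and 2.82 in KO-2, against 1.19 and 1.5 in control, for a fold change of 1.38 in log2 units (SE 0.18, adjusted p = 0.000356). In both genes all knockout libraries were at least 0.9 log2 units above the higher control, and both calls held under all 15 alternative settings. Exons annotated to LINC00598 in GENCODE release 29 overlap FOXO1 on the same strand, and FOXO1 had a log2 fold change of -0.09 (adjusted p = 0.304). Reads from the shared stretch cannot be told apart here.

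LINC02995 had the largest fold change of the members and few reads, 65 in the 4 knockout libraries together and 2 in both controls. It stood at 0.57 and -0.41 log2 CPM in KO-1 and -0.65 and 0.31 in KO-2, against -2.41 log2 CPM in control replicate 1 and no read in control replicate 2. The fitted log2 fold change was 2.81 (SE 0.56, adjusted p = 0.00374) and depends on the prior that was added to each value. The ratio of CPM from the summed reads was 23.6, with a 95% counting interval of 6.27 to 199. It reached the filter limit of 0 log2 CPM only in KO-1 replicate 1 and KO-2 replicate 2. Its place among the members thus rests on the knockout libraries, where it was high. The call held under all 14 alternative settings that tested the gene, which reuse the same libraries and are no separate support.

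The other called LINC genes that rose were LINC02986 at 1.24 (adjusted p = 0.00605), LINC01551 at 0.97 (0.0486), LINC02582 at 0.71 (0.00793), LINC00488 at 0.55 (0.0462) and LINC03061 at 0.49 (0.0245), as log2 fold changes with adjusted p. LINC02986 stood at 1.92 and 1.82 log2 CPM in KO-1 and 1.59 and 1.31 in KO-2, against 0.06 and 0.77 in control. LINC02582 stood at 3.14 and 3.24 in KO-1 and 2.85 and 2.7 in KO-2, against 2.10 and 2.45 in control. Each lay above both controls in all knockout libraries. Without control replicate 1 the adjusted p was 0.117 for LINC02986, 0.149 for LINC02582, 0.397 for LINC03061, 0.242 for LINC00488 and 0.165 for LINC01551. LINC03061 was also lost without KO-1 replicate 1 (0.0732) or replicate 2 (0.0848). LINC00488 and LINC01551 were lost without any one of 5 libraries, with adjusted p of 0.0634 and 0.0509 without KO-2 replicate 1. Without the mean-variance trend the adjusted p was 0.0664 for LINC00488 and 0.104 for LINC03061. LINC01551 had 0.0566 with quantile normalization, 0.0553 on log2 of CPM plus 1 and 0.0917 with thinned reads.

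LINC02701 (chr11:68868360-68874548, plus strand) had the largest decrease of the members. It stood at 0.69 and 0.38 log2 CPM in KO-1 and 0.96 and 1.25 in KO-2, against 2.56 and 2.08 in control, for a fold change of -1.5 in log2 units (SE 0.25, adjusted p = 0.00155). LINC01389 stood at -0.93 and -1.22 log2 CPM in KO-1 and 0.32 and 0.37 in KO-2, against 0.96 and 1.09 in control. Its log2 fold change was -1.39 (SE 0.34, adjusted p = 0.0105), with -2.10 for KO-1 and -0.68 for KO-2. LINC00342 stood at 1.46 and 0.65 log2 CPM in KO-1 and 0.41 and 1.55 in KO-2, against 2.12 and 2.25 in control, for a fold change of -1.17 in log2 units (SE 0.34, adjusted p = 0.0244). In these 3 genes every knockout library lay below both controls, with replicates of one guide up to 1.14 apart. Without control replicate 1 the adjusted p was 0.0613 for LINC02701, 0.110 for LINC01389 and 0.132 for LINC00342. Without control replicate 2 it was 0.137 for LINC01389 and 0.170 for LINC00342, and LINC00342 had 0.0877 without KO-1 replicate 2 and 0.105 without the mean-variance trend.

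The remaining called genes that fell had log2 fold changes of -1.02 for LINC01515, -0.65 for LINC03015, -0.64 for LINC01833, -0.59 for LINC01278, -0.56 for LINC01128, -0.53 for LINC01159 and -0.38 for LINC00205, with adjusted p between 0.00291 and 0.0340. LINC01278 stood at 3.73 and 3.93 log2 CPM in KO-1 and 4.08 and 4.01 in KO-2, against 4.42 and 4.63 in control. It was called for each guide alone. Without control replicate 1, LINC01278 was still called, while the adjusted p was 0.153 for LINC01515, 0.240 for LINC03015, 0.0829 for LINC01833, 0.254 for LINC01128, 0.179 for LINC01159 and 0.0638 for LINC00205. Without control replicate 2 it was 0.0805 for LINC01278, 0.161 for LINC01515, 0.196 for LINC03015, 0.0793 for LINC01833, 0.212 for LINC01159 and 0.178 for LINC00205. Without KO-1 replicate 1, LINC01128 (0.0531), LINC01159 (0.0614), LINC01515 (0.0643) and LINC03015 (0.0803) were not called, and without KO-1 replicate 2, LINC00205 (0.0519), LINC01159 (0.0752) and LINC03015 (0.0694) were not. Without the mean-variance trend, LINC00205 (0.0550) and LINC01128 (0.0525) were not called.

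Of the 5 most abundant LINC genes, LINC00205 was called for both guides. LINC00472 had a log2 fold change of 0.08 (adjusted p = 0.575), LINC00641 of 0.01 (adjusted p = 0.954) and LINC00958 of -0.20 (adjusted p = 0.0738). LINC00645 stood at 5.42 and 5.29 log2 CPM in KO-1 and 5.76 and 5.74 in KO-2, against 5.71 and 5.70 in control. KO-1 was below all 4 other libraries, with a log2 fold change of -0.35 (adjusted p = 0.00879), and KO-2 lay within 0.1 of the controls at 0.04 (adjusted p = 0.745).

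Set against control one guide at a time, with the same 2 control libraries in both comparisons, 26 members were called for KO-1, 11 higher and 15 lower, where 29.7% of all genes were called. For KO-2, 14 members were called, 8 higher and 6 lower, against 16.9% of all genes. The direct comparison of KO-2 with KO-1 called 1 member, LINC00645, higher in KO-2 by 0.39 (95% interval 0.21 to 0.57, adjusted p = 0.0488), against 1.14% of all genes. At an unadjusted p below 0.05 that comparison gave 19 members, and 2381 of all 13765 genes. It called 33 without KO-2 replicate 2, 4 without KO-2 replicate 1 and 0 without any one of the other libraries. The count for KO-1 was 40 and 41 without KO-2 replicate 1 and replicate 2, 11 and 14 without KO-1 replicate 1 and replicate 2, and 12 and 14 without control replicate 1 and replicate 2. The count for KO-2 was 23 and 41, 7 and 7, and 2 and 3 without the same libraries in that order. SNHG5 (-0.83, 95% interval -1.31 to -0.35) and MIR34AHG (-0.79, -1.35 to -0.23) had adjusted p of 0.103 and 0.159. In the authors' deposited table, 26 members had a false discovery rate below 0.05 for KO-1, 13 for KO-2 and 1 for KO-2 against KO-1.

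Replicates of KO-2 differed more than those of the other groups. For members the SD of replicate 1 minus replicate 2 was 0.57 in KO-2, 0.42 in KO-1 and 0.40 in control. The median of this difference in KO-2 was -0.13 over members, -0.19 over snoRNA hosts and -0.26 over microRNA hosts, against 0.01 over all genes tested. MIR34AHG differed by -1.02, NEAT1 by -0.98, MALAT1 by -0.91 and SNHG5 by -0.78. KO-2 replicate 1 also had the fewest reads and 61 genes without a read, where the other libraries had 5 to 16; the part of depth or RNA quality in these differences was not tested. Without KO-2 replicate 1 there were 26 members higher and 15 lower for the mean of both guides, and without KO-2 replicate 2 there were 20 higher and 27 lower. Leaving out control replicate 1 gave 6 higher and 2 lower, and leaving out control replicate 2 gave 8 higher and 3 lower.

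**Figure D5:**
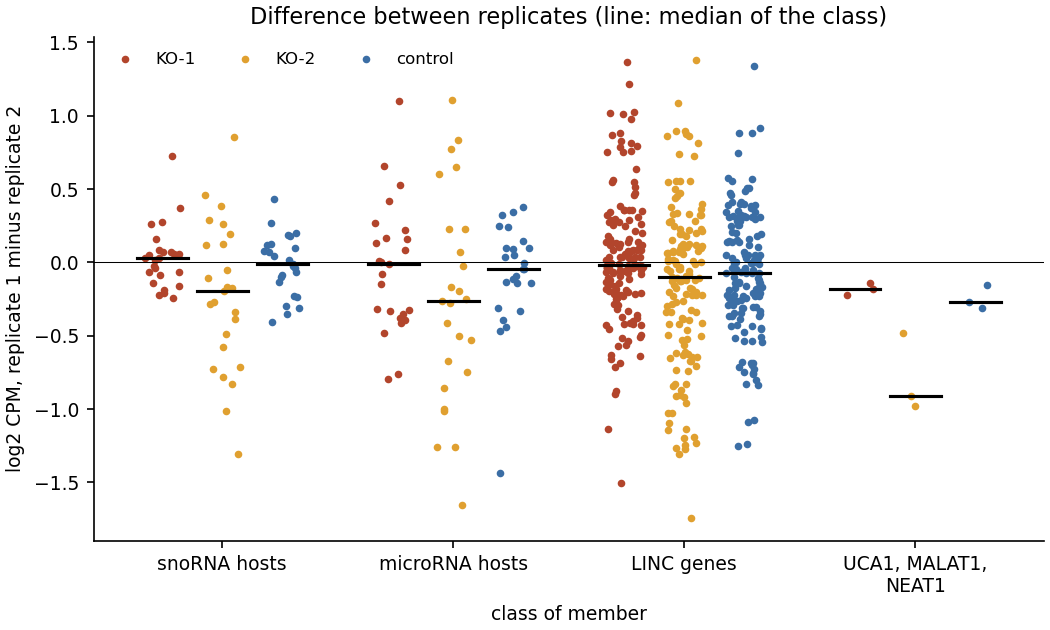
Log2 CPM of replicate 1 minus replicate 2 (y axis) for each member by class (x axis) in KO-1, KO-2 and control; black lines are the median of the class. In KO-2 the medians of the snoRNA hosts and microRNA hosts lie below 0, at -0.19 and -0.26.

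The coding genes nearest to called members mostly did not move with them. Of the 25 called members, 19 had a tested protein-coding gene within 100 kb; 17 of these neighbours were not called. SYNCRIP, an RNA-binding protein gene 33137 bp from SNHG5, was lower (-0.26, adjusted p = 0.00507) where SNHG5 was higher. Near the homeobox gene SIX2, LINC01833 fell, and SIX2 itself had -0.67 (adjusted p = 0.0818). Over all members, 155 had such a neighbour and 50 of the neighbours were called. Neighbours lying inside or across a member included POU3F3 for LINC01159 (-0.06, adjusted p = 0.428) and FOXE3 for LINC01389 (0.19, adjusted p = 0.780).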

How the data were processed

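Expression was deposited by the authors as log2 CPM per gene for 6 libraries, and their second table holds log2 fold changes with p-values and false discovery rates. Per the submitters' processing notes, fastp, STAR 2.7, featureCounts (Subread 2.0) and edgeR were used with hg38; gene annotation and strand setting appear in no source used here. Removing the shared prior of 0.102 CPM gave whole reads for 100% of values (tolerance 0.01 reads). Genes at log2 CPM of at least 0 in at least 2 libraries were fitted with limma 3.58.1 (R 4.3.3), a group-means model with a mean-variance trend over all 6 libraries, and adjusted by Benjamini-Hochberg over 13765 genes. Since every value includes that prior, fold changes of low genes are understated. The fit was also run on simulated counts with known changes. Those counts had the same spread in every library, unlike these data, so that run does not show how well changes are recovered here.

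The members and gene lists were chosen with earlier results of these data known. Named members are the called ones with the highest and lowest fold changes, up to 12 each way, with the knockout libraries on one side of both controls, LINC00645 for the comparison of guides, all non-LINC members the 5 most abundant LINC genes, up to 3 genes of each list by p, and the nearest coding gene; others were chosen after their values were seen, and a few genes are not reported here. Positions come from RefSeq (GRCh38.p14), which named 197 of the 199 members, and exon lengths and overlaps from GENCODE release 29. There, exons of 34 members overlap a protein-coding gene, 17 of them on the same strand. The labels do not call the replicates separate cultures; p-values thus measure library spread, which may be technical. Chi-square per degree of freedom between replicates was 2.98 for KO-1, 8.27 for KO-2 and 3.66 for control, so none was merged. The other data of the series were not used here.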

Additional observations from a re-analysis of the deposited data

Results flagged for a closer look

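LINC00645 differed between the guides by the test of the difference itself: KO-2 minus KO-1 was 0.39 on the log2 scale (limma, adjusted p = 0.0488). It stood at 5.76 and 5.74 log2 CPM in KO-2 and 5.42 and 5.29 in KO-1, with both controls between 5.70 and 5.71. The call was lost under the 6 settings named below and without either control or either KO-1 library.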

How the results depend on the processing

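The members called higher numbered 13 for the mean of both guides and 10 to 17 under the 8 alternative settings of scaling, filter, pseudocount, trend, voom and thinning; the members called lower numbered 12 to 14 under them, except 7 among members averaging 2 log2 CPM or more, where fewer genes were tested. Leaving out 1 library gave 6 to 26 higher and 2 to 27 lower. The count for KO-1 was 18 to 28 under those settings and 11 to 41 with 1 library left out. For KO-2 it was 10 to 16, except 2 without the mean-variance trend, and 2 to 41 with 1 library left out. For KO-2 against KO-1 the count was 0 with no filter on low values, with library medians set equal, with quantile normalization, without the trend, with thinned reads and with the replicate block, and 0 to 33 with 1 library left out; the cause of these shifts was not tested. Of the 25 calls for both guides, 25 were kept with voom on recovered reads, 24 each with quantile normalization, log2 of CPM plus 1 and thinned reads, each of which lost LINC01551, and 16 without the trend. Where a group is left with 1 library, that library is assumed to vary like the others.

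The fit with a replicate block gave 11 higher, 13 lower, 23 for KO-1, 11 for KO-2 and 0 for KO-2 against KO-1. Same-numbered libraries did not deviate together (Pearson r of -0.05, 0.04 and -0.04 over 13765 genes). With 2 libraries a group this cannot exclude a shared day or batch, and the labels do not say whether the numbers pair the libraries. With the block, 23 of the 25 calls were kept, and LINC00488 (adjusted p = 0.0522) and LINC01551 (0.0653) were not called.

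Among the named members that were not called, 29 changed sign somewhere, in 64 values, 49 of them with 1 library left out. With library medians set equal, which moved the median of all genes to 0.04, DANCR had 0.002, MIR22HG 0.0016 and SNHG10 0.0419. On log2 of CPM plus 1, MIRLET7IHG had -0.031. With quantile normalization, MIR22HG had 0.01, MIR924HG 0.0147, MIRLET7IHG -0.0172 and SNHG10 0.0453. With reads thinned to the shallowest library, LINC00641 had -0.0062, MIR222HG -0.0343, MIR22HG 0.0494, SNHG10 0.025, SNHG19 0.0637 and SNHG9 -0.143. With voom, SNHG10 had 0.0126. With 1 library left out, the log2 fold change ranged as follows: DANCR -0.0924 to 0.0042, GAS5 -0.0052 to 0.092, LINC00472 -0.0193 to 0.1756, LINC00641 -0.1073 to 0.1244, MALAT1 -0.4018 to 0.0526, MIR193BHG -0.3762 to 0.1736, MIR210HG -0.5373 to 0.0918 and MIR222HG -0.0545 to 0.1208. Likewise, ranges were MIR22HG -0.177 to 0.088, MIR23AHG -0.0039 to 0.496, MIR3142HG -0.0822 to 0.5459, MIR3936HG -0.1591 to 0.2375, MIR4458HG -0.0296 to 0.0869, MIR503HG -0.3875 to 0.0052, MIR762HG -0.344 to 0.209 and MIR924HG -0.2097 to 0.1169. Further ranges were MIRLET7A1HG -0.5602 to 0.2662, MIRLET7BHG -0.2485 to 0.0876, MIRLET7IHG -0.708 to 0.7256, NEAT1 -0.0891 to 0.4, SNHG10 -0.0749 to 0.0666, SNHG11 -0.0151 to 0.3406, SNHG14 -0.0105 to 0.0418 and SNHG15 -0.0232 to 0.1794. The last ranges were SNHG17 -0.0356 to 0.2093, SNHG18 -0.5628 to 0.0914, SNHG19 -0.207 to 0.0225, SNHG7 -0.2903 to 0.1252 and SNHG9 -0.151 to 0.2766. 

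Depth limits what can be said of low members: fold changes had a 95% interval within 1 log2 unit of 0 for 54 of the 119 members below 2 log2 CPM and for all 16 at 5 or more. With 2 libraries a group the residual degrees of freedom were 3.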

Other observations

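The letters TGANTCA, a loose form of the AP-1 site, were searched on both strands of the RefSeq windows from 250 bases before to 50 after each start. They were found for 3 of the 8 members called higher that have a promoter entry (LINC00488, LINC02995 and MIR4435-2HG), for none of the 10 called lower, and for 7.76% of all 27305 promoters. Of these 3, LINC02995 passed the filter only through knockout libraries, where it was high. LINC00488 was not called without the mean-variance trend or with the replicate block. The share among the 8 is thus a description only, and a link to the calls was not tested. Over all 150 members with an entry they were found for 12 (8%), and over the 103 LINC genes for 11 (10.7%). UCA1 and LINC03078 have no entry. Of the other motifs searched in the same windows, the p53 half-site was in 1 of the 8, none of the 10 and 6.54% of all promoters. The E2F letters TTTNNCGC were in 1 of the 8 (LINC02995), 1 of the 10 and 6.9% of all, and the TATA box letters TATAAA in 1 of the 8, 1 of the 10 and 12% of all. A match is a description of the letters and does not show binding.

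The epithelial and mesenchymal markers of the line moved as well: 5 of the 6 markers measured were higher for the mean of both guides, where 14.6% of all genes were, KRT19 by 0.47 (limma, adjusted p = 0.0001) and VIM by 0.37 (adjusted p = 0.0033) on the log2 scale. Their summed level was 2264 to 2306 CPM in the knockout libraries and 1842 and 1876 CPM in the controls. COL1A1, a collagen gene listed among the markers of other cell types, was higher by 0.63 (adjusted p = 0.0039), and CDH5, an endothelial cadherin gene of the same list, was lower (-0.40, adjusted p = 0.0304).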
